A study of Mus musculus with 4 samples.

Results

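The genes described here encode the core proteins of the spliceosome, 52 of the 53677 gene symbols in the count tables. They were taken by symbol: the Snrp and Snrnp genes, the numbered Lsm genes, the Sf3a and Sf3b genes and the numbered Prpf genes. Of 55 symbols that fit, the imprinted tissue-specific gene Snrpn and the pseudogenes Snrp1c-ps1 and Snrp1c-ps2 were left out. The annotation listed 51 of the 52 as protein coding and Snrpert as a processed pseudogene, a copy of Snrpe on chromosome 2. All 52 passed the filter on low counts.

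Poly(A) RNA was sequenced from germinal vesicle (GV) oocytes of mice, fully grown cells arrested in meiotic prophase. Females of an unstated strain and age received 7.5 IU of PMSG, a gonadotropin that stimulates follicle growth, and oocytes were taken 48 h later. The 2 groups were controls (Ctrl) and an Ell3 knockdown (Ell3 KD), with 2 libraries each, every library a pool of 5 oocytes amplified by Smart-seq2. ELL3 acts in transcript elongation by RNA polymerase II, and the comparison asked whether transcripts differed between the groups. The agent behind the knockdown, and whether the 2 libraries of a group came from different animals, are not given in the sources used here, so p-values measure only the spread between these libraries.

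The spliceosome removes introns from pre-mRNA. Its main subunits are small nuclear ribonucleoproteins (snRNPs), each a small nuclear RNA with its proteins. A ring of Sm proteins sits on the U1, U2, U4 and U5 RNAs, while a ring of LSm proteins holds U6 and a sister ring takes part in mRNA decay. U1 marks the 5′ splice site, U2 with SF3A and SF3B binds the branch point, and the tri-snRNP of U4, U6 and U5 then joins and is activated for catalysis. A minor spliceosome with U11 and U12 removes a rare class of introns. Fully grown GV oocytes are nearly silent in transcription and live on stored mRNA, so their transcript levels reflect synthesis during growth and later stability.

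Library totals ranged from 45131278 to 89632815 counts, both Ell3 KD libraries being deeper than both Ctrl libraries. Ell3 itself, the check of the labels, was counted 371 and 483 times in the Ctrl libraries and 255 and 181 times in those of the knockdown. Scaled to a library total of 1000000 (CPM), this was 8.95 ± 1.18 against 2.84 ± 0.0558 CPM (mean ± SD, n = 2), a log2 fold change of -1.66. Of the Ell3 exon length, 65.6% is shared with Serinc4, which had at most 11 counts in a library. The 10 oocyte markers summed to between 21001 and 21559 CPM, with Gdf9, Bmp15 and the zona pellucida genes among them. Single markers differed between the groups in edgeR. Gdf9, Zp1 and Nlrp5 were called lower in Ell3 KD, with log2 fold changes of -0.20, -0.12 and -0.23. Ooep and Dppa3 were called higher, at 0.40 and 0.49, and Bmp15, Zp2, Zp3, Mos and Figla were not called. The 12 cumulus and granulosa markers summed to 28.9 to 31.7 CPM in Ctrl and 28.8 to 31.1 in Ell3 KD, with Cyp19a1 alone at 16.2 to 18.7 CPM in every library. Among these markers Inha was higher under knockdown, at 0.941 and 1.13 CPM in Ctrl and 2.18 and 2.47 CPM in Ell3 KD (edgeR adjusted p = 3.63e-04). Foxl2, Amh and Amhr2 had 0 counts in both Ctrl libraries and between 3 and 9 counts in the deeper Ell3 KD libraries. Others lay the other way. Fshr had 0.897 and 1.01 CPM in Ctrl and 0.598 and 0.448 CPM in Ell3 KD, without a call (edgeR adjusted p = 0.0630). Has2 had 7 and 3 counts in Ctrl and 2 in each Ell3 KD library. The part of such cells in the results was not tested. The 4 theca markers summed to 3.54 to 3.70 CPM in Ctrl and 2.55 to 2.72 in Ell3 KD. The 7 blood markers summed to 2.58 to 2.98 CPM in Ctrl and 1.21 to 1.37 CPM under knockdown. Hbb-bs, Hbb-bt, Hba-a1, Hba-a2 and Lyz2 stood at 0 in every library, and Ptprc overlapped between the groups. Cd68 made up most of the sum, at 2.43 and 2.86 CPM in Ctrl and 1.23 and 1.13 CPM in Ell3 KD (edgeR adjusted p = 2.18e-04). In such pools, loss of a transcript from some oocytes and a smaller loss from all of them cannot be told apart.

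Of the 52 genes, 22 rose in Ell3 KD, 6 fell and 24 did not pass the test (edgeR quasi-likelihood test, Benjamini-Hochberg adjusted p under 0.05 over all 17879 genes tested). With libraries scaled by their totals alone, which moves the median of all genes to -0.04, 18 rose and 9 fell. Over all genes tested, 21.1% were called higher and 21.8% lower, 42.9% in all. Among genes with a mean of at least 5 CPM, which holds for all but 2 of the 52, these shares were 27.2% and 25.3%. The members' median log2 fold change was 0.09, against 0.01 over genes of at least 5 CPM, and their values ran from -0.34 to 0.80. Changes were small: for 48 of 52 the 95% interval lay within 1.5-fold of no change, as it did for 52.9% of all genes and 88.8% of those of at least 5 CPM. Both Ell3 KD libraries lay above both Ctrl libraries for 31 members and below them for 12, where 35.0% and 35.7% of all genes did so. Among genes of at least 5 CPM these shares were 39.1% and 37.3%, or 76.4% for either, and 9 members overlapped.

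The calls rest on the close likeness of the 2 libraries in each group, whose common biological coefficient of variation was 0.0421. With an assumed coefficient of 0.2 in edgeR's likelihood ratio test none of the 52 was called, and 2 had an unadjusted p under 0.05.

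**Figure D1:**
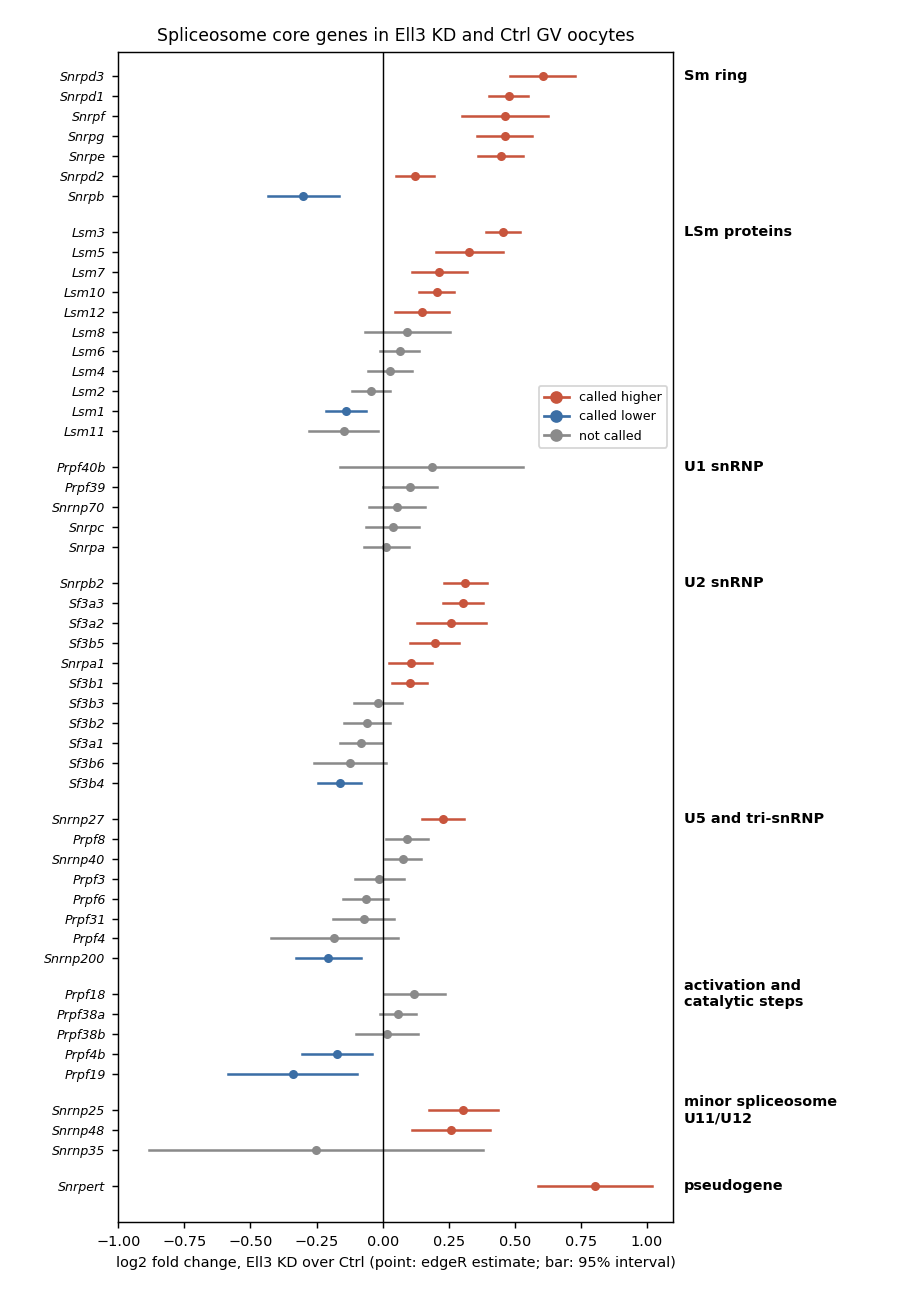
Log2 fold change of 51 of the 52 genes in Ell3 KD over Ctrl oocytes, grouped by role; points are edgeR estimates and bars 95% intervals, from 2 libraries per group. Most Sm ring genes stand to the right of 0 with Snrpb to the left, while the U1 genes lie between 0.01 and 0.19.

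The Sm ring showed the widest split. The ring has 7 subunits, named B, D1, D2, D3, E, F and G, which the SMN complex loads onto the RNA together. Transcripts of 6 of the 7 rose and that of Snrpb, which encodes SmB and SmB′, fell, with no overlap between groups for any of the 7 and a median log2 fold change of 0.46. All 7 lie above 5 CPM, where 27.2% of genes were called higher and 25.3% lower. The groups did not overlap for 76.4% of such genes, counting either direction. Of the 7, Snrpd1, Snrpe and Snrpf have reference transcripts under 1000 bp, and 57.0% of genes of that length with at least 5 CPM were called higher.

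Snrpd3, the D3 subunit that pairs with SmB, stood at 24.9 and 26.5 CPM in Ctrl and at 38.9 and 39.2 CPM in Ell3 KD. The rise of 52.1% was the largest of the protein-coding members (log2 fold change 0.60 ± 0.06 SE, edgeR adjusted p = 9.89e-09). Snrpd1, the D1 subunit, had 124.5 and 124.6 CPM in Ctrl against 174.2 and 172.6 in Ell3 KD (0.48 ± 0.04, edgeR adjusted p = 9.77e-11). In both genes the libraries of a group lay far closer to each other than to the other group.

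The E, F and G subunits, which assemble as a trimer, moved by nearly the same amount, and Snrpd1, outside the trimer, by a like one (0.48). With a trend on transcript length and GC content taken out, Snrpe, Snrpf and Snrpg gave 0.25, 0.32 and 0.35. Snrpe had 72.5 and 71.2 CPM in Ctrl and 98.6 and 97.0 CPM in Ell3 KD, a change of 0.45 ± 0.04 in log2 (edgeR adjusted p = 4.54e-09). Snrpg had 63.8 and 59.8 CPM in Ctrl and 89.8 and 80.1 CPM in Ell3 KD, a change of 0.46 ± 0.05 (edgeR adjusted p = 6.14e-08). Snrpf, at 15.0 CPM in both Ctrl libraries and 22.0 and 19.2 CPM in Ell3 KD, changed by 0.46 ± 0.08 (edgeR adjusted p = 4.08e-05). The library labelled Ell3 KD 1 was the higher of its group for all 3 of these genes. Of the Snrpf exon length, 85.4% lies opposite Ccdc38 or 4933408J17Rik, so its counts are uncertain if the authors counted without strand. Ccdc38 fell from 46.1 to 40.9 CPM on average.

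Snrpd2, the D2 subunit and the ring gene with the most counts, had 229.4 and 230.5 CPM in Ctrl and 257.8 and 242.6 CPM in Ell3 KD, a change of 0.12 ± 0.03 (edgeR adjusted p = 0.00604). Its call was lost without Ell3 KD replicate 1, where the edgeR adjusted p was 0.195, and with scaling by totals alone.

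Snrpb moved the other way. It had 37.9 and 33.1 CPM in Ctrl and 30.0 and 27.6 CPM in Ell3 KD, a log2 fold change of -0.30 ± 0.07 (adjusted p = 6.18e-04 in edgeR). Snrpb lies on the minus strand of chr2:130171414-130179403 (GRCm38), and no annotated exon of another gene overlaps its own. Per kb of transcript, Snrpb made up 5.73% and 5.09% of the summed level of the 7 ring genes in Ctrl and 3.54% and 3.39% in Ell3 KD. The ratio of Snrpb to Snrpd3 per kb, the 2 genes whose proteins bind each other, was 3.99 and 3.27 in Ctrl and 2.02 and 1.84 in Ell3 KD. This order depends on dividing by 1 reference length for each gene, 1161 bp for Snrpb and 3036 bp for Snrpd3. In CPM, Snrpd3 was the lower of the pair in Ctrl and the higher in Ell3 KD. Snrpn, left out of the members, is in neither the share nor the ratio. It had 22.6 and 21.6 CPM in Ctrl and 20.9 and 21.5 CPM in Ell3 KD, without a call (edgeR adjusted p = 0.502).

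**Figure D2:**
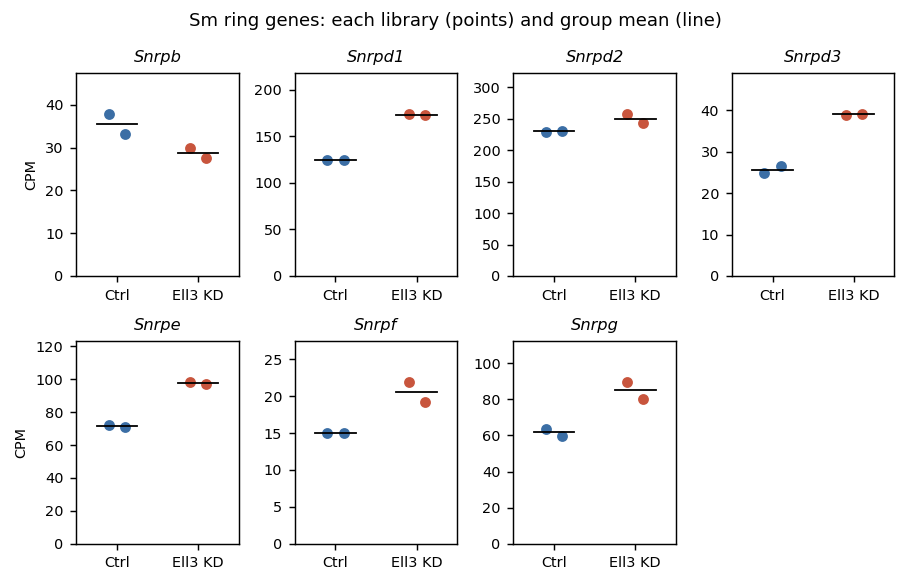
Level of the 7 Sm ring genes in each library in CPM (axes from 0); points are libraries and lines group means. Both Ell3 KD libraries lie above both Ctrl libraries for Snrpd1, Snrpd2, Snrpd3, Snrpe, Snrpf and Snrpg and below them for Snrpb. Such non-overlap, in either direction, holds for 76.4% of genes of at least 5 CPM.

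The start regions of 4 ring genes that rose are shown, those with a window in the RefSeq table other than Snrpd2, whose rise was smaller. Each runs from 250 bases before the RefSeq transcript start to the first 25 bases of the transcript, 5′ to 3′ on the gene's strand (RefSeq, GRCm38.p6). They are Snrpd3 at chr10:75517792-75518066 on the plus strand, Snrpe at chr1:133610256-133610530 on the minus strand, Snrpf at chr10:93589634-93589908 on the minus strand and Snrpg at chr6:86371290-86371564 on the plus strand. Capitals mark matches, on either strand, to any of 8 motifs: the ETS site CCGGAAG, the GC box GGGCGG, the CCAAT box CCAAT, the TATA box TATAAA, the E-box CACGTG, the CRE TGACGTCA, the YY1 site AAGATGGC and the palindromic NRF1 site.
Snrpd3: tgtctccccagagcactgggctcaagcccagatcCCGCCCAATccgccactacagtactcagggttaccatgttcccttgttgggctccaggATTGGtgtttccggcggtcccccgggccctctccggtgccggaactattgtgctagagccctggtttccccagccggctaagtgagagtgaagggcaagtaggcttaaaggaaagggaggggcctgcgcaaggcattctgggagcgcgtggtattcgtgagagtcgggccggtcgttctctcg
Snrpe: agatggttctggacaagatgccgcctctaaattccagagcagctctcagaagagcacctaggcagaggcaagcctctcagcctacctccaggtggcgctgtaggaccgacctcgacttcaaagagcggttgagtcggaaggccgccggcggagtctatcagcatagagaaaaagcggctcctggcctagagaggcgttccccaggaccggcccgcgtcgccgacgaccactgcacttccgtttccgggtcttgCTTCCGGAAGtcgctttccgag
Snrpf: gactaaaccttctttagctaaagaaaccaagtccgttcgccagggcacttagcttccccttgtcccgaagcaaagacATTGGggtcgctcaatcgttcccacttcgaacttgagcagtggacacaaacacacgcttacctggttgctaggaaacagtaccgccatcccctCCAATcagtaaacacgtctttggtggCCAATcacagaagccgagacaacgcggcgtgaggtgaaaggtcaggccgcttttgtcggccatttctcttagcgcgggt
Snrpg: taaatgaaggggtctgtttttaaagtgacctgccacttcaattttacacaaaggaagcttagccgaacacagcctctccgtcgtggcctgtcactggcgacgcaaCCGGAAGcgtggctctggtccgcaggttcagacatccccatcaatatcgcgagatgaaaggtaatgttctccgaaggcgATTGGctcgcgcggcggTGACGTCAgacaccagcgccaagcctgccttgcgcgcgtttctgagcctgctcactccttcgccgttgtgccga
The 4 differ in these letters. The Snrpe window holds 2 overlapping ETS matches on opposite strands, just after the start, the Snrpf window 3 CCAAT boxes, and the Snrpg window an ETS match, a CCAAT box on the opposite strand and a CRE. The Snrpd3 window holds a GC box that overlaps a CCAAT box and a further CCAAT box on the opposite strand.

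Over windows from 250 bases before to 50 after the start, 41 of the 52 genes had an entry. The ETS letters stood in 17 of 41 genes (41.5%), against 9.93% of 27025 genes with a window. The GC box was in 70.7% against 38.2%, and the median GC content was 57.8% against 52.7% over all windows. The CCAAT box was in 39.0% against 41.1%, and TATAAA in 7.32% against 15.7%. CACGTG was in 9.76% against 8.09%, TGACGTCA in 7.32% against 2.03%, AAGATGGC in 7.32% against 3.19%, and the NRF1 site in 2.44% against 1.07%. Matches of different motifs were counted apart where they overlapped, and a match is a description of the sequence only. Of the 17 genes with the ETS letters 7 rose and 3 fell. Of the 24 without them 10 rose and none fell (0 of 24). Over genes of at least 5 CPM, 27.2% were called higher and 25.3% lower. Snrpb, Lsm1 and Sf3b4, which fell, had no window and are in neither group. Whether these groups differ was not tested.

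Among the LSm genes, 5 of 11 rose, 1 fell and 5 did not pass the test, with a median log2 fold change of 0.09. All 11 lie above 5 CPM, where 27.2% of genes were called higher and 25.3% lower. Of the 11, 7 have reference transcripts under 1000 bp, and 4 of these 7 rose, where 57.0% of genes of that length with at least 5 CPM did. LSm2 to LSm8 form the ring on U6 RNA. In the ring that joins mRNA decay, LSm1 takes the place of LSm8. Lsm3, shared by both rings and the member with the highest level per kb of all 52, had 234.1 and 233.0 CPM in Ctrl and 318.9 and 321.6 CPM in Ell3 KD, a change of 0.46 ± 0.03 in log2 (edgeR adjusted p = 2.86e-11). It had the smallest p of the 52 genes. Its share of the summed level of Lsm1 to Lsm8 per kb was 34.7% and 34.3% in Ctrl and 40.5% and 41.4% in Ell3 KD.

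Lsm5, another shared subunit, had 25.1 and 27.0 CPM in Ctrl and 32.8 and 32.6 CPM in Ell3 KD (0.33 ± 0.06, edgeR adjusted p = 1.18e-04). Lsm7, also shared, had 53.4 and 51.8 CPM in Ctrl and 63.8 and 58.1 CPM in Ell3 KD (0.22 ± 0.05, edgeR adjusted p = 0.00128). Both have processed copies that were counted apart, Gm7846 and Gm10146 leading, and the copies' counts came to 34.0% and 37.2% of those of Lsm5 and Lsm7. How reads that map to both were assigned is not stated. Without Ell3 KD replicate 1 the call of Lsm7 was lost. The other shared subunits lay closer to no change. Lsm2 had 178.5 and 182.5 CPM in Ctrl and 176.1 and 173.9 in Ell3 KD, Lsm4 had 88.1 and 88.6 against 91.4 and 88.7, and Lsm6 had 198.8 and 187.4 against 202.9 and 201.1, with edgeR adjusted p of 0.322, 0.625 and 0.146.

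The subunits that tell the 2 rings apart were Lsm1 and Lsm8. Lsm1 had 132.6 and 135.7 CPM in Ctrl and 121.2 and 122.4 CPM in Ell3 KD, a log2 change of -0.14 ± 0.04 (adjusted p = 0.00359 in edgeR), a call lost without Ell3 KD replicate 1 (0.0534). Lsm8, the U6 subunit, had 15.6 and 16.7 CPM in Ctrl and 17.5 and 17.0 in Ell3 KD and did not pass the test (adjusted p = 0.353). The ratio of Lsm1 to Lsm8 per kb was 2.58 and 2.46 in Ctrl and 2.10 and 2.19 in Ell3 KD. This ratio was computed after the values were seen and has no test.

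Lsm10 and Lsm11 replace the D1 and D2 subunits on the U7 snRNP, which cuts the 3′ end of histone mRNA. Lsm10 had 270.3 and 267.2 CPM in Ctrl and 311.0 and 308.1 CPM in Ell3 KD (0.20 ± 0.03, edgeR adjusted p = 1.16e-05). Lsm11 had 30.0 and 29.5 CPM in Ctrl and 25.7 and 28.1 in Ell3 KD. It had an edgeR adjusted p of 0.0615 and a 95% interval of the log2 fold change from -0.28 to -0.02. Lsm12, an LSm-domain protein outside the rings, rose from 45.5 and 44.7 CPM to 49.9 and 50.3 (0.15 ± 0.05, edgeR adjusted p = 0.0173). The Lsm12 call held in 10 of 15 alternatives.

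**Figure D3:**
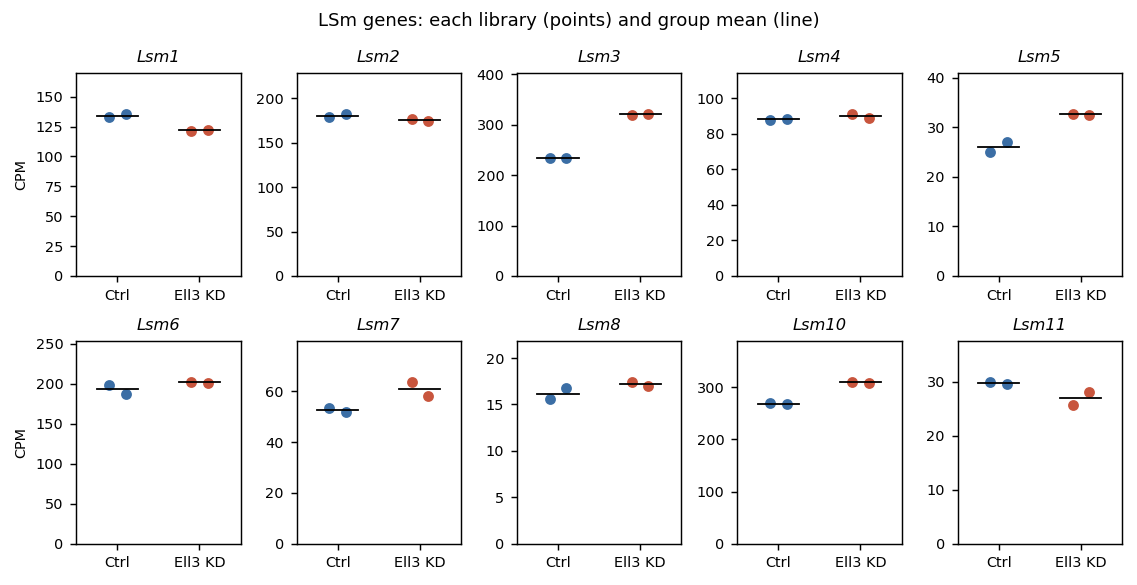
Level of 10 of the 11 LSm genes (all but Lsm12) in each library in CPM (axes from 0); points are libraries and lines group means. Lsm3 shows the widest gap between groups, Lsm1 lies lower in Ell3 KD, and Lsm2, Lsm4, Lsm6 and Lsm8 lie close together.

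The U2 snRNP genes rose in 6 of 11 cases and fell in 1, with a median log2 fold change of 0.10, where 27.2% of genes of at least 5 CPM were called higher and 25.3% lower. Snrpb2, which encodes the U2 protein B″, had 97.8 and 98.2 CPM in Ctrl and 120.8 and 122.9 CPM in Ell3 KD (0.31 ± 0.04, edgeR adjusted p = 3.88e-07). Its partner on the same RNA hairpin, Snrpa1 (U2 A′), had 100.7 and 100.9 CPM in Ctrl and 109.6 and 107.2 in Ell3 KD (0.11 ± 0.04, edgeR adjusted p = 0.0310). The Snrpa1 call held in 6 of 15 alternatives.

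SF3A is a trimer that links U2 to the branch point. Sf3a3 had 157.9 and 168.0 CPM in Ctrl and 199.0 and 203.5 CPM in Ell3 KD (0.30 ± 0.04, edgeR adjusted p = 2.96e-07), and the groups did not overlap. Sf3a2 had 30.1 and 27.6 CPM in Ctrl and 36.1 and 32.8 in Ell3 KD (0.26 ± 0.06, edgeR adjusted p = 0.00171). Of its exon length 16.1% lies opposite Plekhj1, and the call was lost without Ell3 KD replicate 1 (adjusted p = 0.0655). Sf3a1, its large subunit, had 115.6 and 120.9 CPM in Ctrl and 110.6 and 112.9 in Ell3 KD and did not pass the test (adjusted p = 0.0938).

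SF3B clamps the branch point. Of the 6 genes that carry an Sf3b symbol, 2 rose and 1 fell, where 27.2% of genes of at least 5 CPM were called higher and 25.3% lower. Sf3b5, a small subunit, had 62.8 and 66.9 CPM in Ctrl and 73.9 and 74.9 CPM in Ell3 KD (0.20 ± 0.05, edgeR adjusted p = 0.00105). Sf3b1, the large subunit that carries the branch point pocket, had 274.9 and 280.4 CPM in Ctrl and 299.9 and 296.1 in Ell3 KD (0.10 ± 0.03, edgeR adjusted p = 0.0116). Sf3b4, which binds RNA next to the branch point, had 153.6 and 151.4 CPM in Ctrl and 141.7 and 130.5 CPM in Ell3 KD and fell by 0.16 (edgeR adjusted p = 0.00168), a call lost without Ell3 KD replicate 2 (0.124). Sf3b2, Sf3b3 and Sf3b6 gave log2 fold changes of -0.06, -0.02 and -0.12 and did not pass the test. The Sf3b1 call held in 11 of 15 alternatives.

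For U1, 5 genes are described, and none of these 5 passed the edgeR test. Over genes of at least 5 CPM, which leaves out Prpf40b, 52.5% were called and 76.4% did not overlap, counting either direction. The U1-specific proteins Snrnp70, Snrpa and Snrpc, which bind the U1 RNA and the 5′ splice site, gave 0.06, 0.01 and 0.04, and Ctrl and Ell3 KD libraries overlapped for all 3. Snrpa, the U1 gene with the highest level per kb, had 92.3 and 89.6 CPM in Ctrl and 94.1 and 89.5 in Ell3 KD. Its sign turned under another scaling, at -0.02 when libraries were scaled by their totals alone. The 95% intervals of Snrnp70, Snrpa and Snrpc ended at -0.05 to 0.16, -0.07 to 0.10 and -0.06 to 0.14. The U1-associated factors Prpf39 and Prpf40b gave 0.10 and 0.19 and did not pass the test, Prpf40b with at most 3.55 CPM.

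The 8 genes of U5 and the tri-snRNP gave 1 rise and 1 fall, with a median of -0.04. All 8 lie above 5 CPM, where 27.2% of genes were called higher and 25.3% lower. Snrnp27, a tri-snRNP protein and the member with the next highest level per kb after Lsm3, had 271.8 and 301.4 CPM in Ctrl and 329.7 and 341.9 CPM in Ell3 KD (0.23 ± 0.04, edgeR adjusted p = 2.89e-05). Snrnp200, the Brr2 helicase that unwinds U4 from U6, had 39.2 and 35.1 CPM in Ctrl and 32.1 and 32.3 CPM in Ell3 KD and fell by 0.21 (edgeR adjusted p = 0.00718). With a trend on transcript length and GC content taken out, neither passed: Snrnp27 gave 0.09 (adjusted p = 0.0748) and Snrnp200 gave -0.10 (adjusted p = 0.169). Snrnp200 also lost its call without Ctrl replicate 1. Prpf8, the U5 protein at the catalytic centre, had 111.2 and 116.1 CPM in Ctrl and 122.4 and 120.0 in Ell3 KD and lay just short of the threshold (0.09 ± 0.04, edgeR adjusted p = 0.0544). Snrnp40, a WD repeat protein of U5, was as close (0.08 ± 0.03, adjusted p = 0.0682). Prpf3, Prpf31 and Prpf4 of U4/U6 and the bridging protein Prpf6 gave -0.01, -0.07, -0.18 and -0.06 and did not pass.

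Of the 5 factors of activation and catalysis, 2 fell, both with calls that did not hold in every alternative. All 5 lie above 5 CPM, where 27.2% of genes were called higher and 25.3% lower. Prpf19, the ubiquitin ligase at the centre of the Prp19 complex, had 7.48 and 7.82 CPM in Ctrl and 6.18 and 5.89 CPM in Ell3 KD (log2 fold change -0.34 ± 0.12, edgeR adjusted p = 0.0224). In DESeq2 its adjusted p was 0.0789, and its call held in 10 of 15 alternatives. Prpf4b, a kinase of tri-snRNP proteins, had 35.4 and 41.9 CPM in Ctrl and 35.0 and 33.6 CPM in Ell3 KD (-0.17 ± 0.06, edgeR adjusted p = 0.0334). The fall rested on Ctrl replicate 2, without which it was -0.05 with an adjusted p of 0.658. Prpf18, a factor of the second step, Prpf38a and Prpf38b gave 0.12, 0.06 and 0.02 without a call. Prpf38a, the gene of this role with the highest level per kb, had 252.0 and 253.6 CPM in Ctrl and 258.3 and 268.2 in Ell3 KD.

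Of the 3 proteins of the minor U11/U12 snRNP, 2 rose, where 27.2% of genes of at least 5 CPM were called higher and 25.3% lower. The reference transcript of Snrnp25 is under 1000 bp, and 57.0% of genes of that length with at least 5 CPM were called higher. Snrnp25 had 24.1 and 23.6 CPM in Ctrl and 30.3 and 28.6 CPM in Ell3 KD (0.31 ± 0.06, edgeR adjusted p = 3.48e-04). Snrnp48, which contacts the 5′ splice site of minor introns, had 17.7 and 19.4 CPM in Ctrl and 22.3 and 22.1 in Ell3 KD (0.26 ± 0.07, edgeR adjusted p = 0.00502), and without Ctrl replicate 1 its adjusted p was 0.0732. Snrnp35 lay near 1 CPM, from 0.819 to 1.44, and its interval of -0.88 to 0.38 left the direction unresolved at this depth.

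Snrpert, the processed copy of Snrpe at chr2:131322088-131322366 (GRCm38, minus strand), had 7.13 and 7.92 CPM in Ctrl and 14.16 and 12.04 CPM in Ell3 KD (0.80 ± 0.10, edgeR adjusted p = 9.19e-07). Reads of Snrpe and Snrpert cannot be told apart where the copies match, and how such reads were counted is not stated. Per kb, Snrpe stood 5.64 and 4.99 times above Snrpert in Ctrl and 3.86 and 4.47 times above it in Ell3 KD. Snrpf and Snrpg also have processed copies, whose counts came to 9.66% and 8.46% of theirs. With the counts of annotated near-identical copies added to their parent genes, 21 of 51 members rose and 6 fell, the same genes as without.

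Transcript length moved with these results. Across the 51 protein-coding members the log2 fold change had a Spearman correlation of -0.41 with reference transcript length and -0.36 with GC content. Over 17308 genes tested, whatever their level, these were -0.14 and -0.04. The 2 sets are unlike in level: under 1000 bp, 26.5% of all genes were called higher, against 57.0% of those of at least 5 CPM. The members share the same 4 libraries, and these values are descriptions across genes. Of 13 members under 1000 bp, 9 rose and 0 fell, with a median of 0.23. Among all genes of that length with at least 5 CPM, 57.0% were called higher and the median was 0.20. Of 19 members from 1000 to under 3000 bp, 8 rose and 4 fell (median 0.06, against 29.1% higher and 0.02 for all such genes). Of 19 members of 3000 bp or more, 4 rose and 2 fell (median 0.02, against 19.8% higher and -0.04).

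With the trend on length and GC content taken out in edgeR, all 7 Sm ring genes kept their call and direction. Snrpd3, whose transcript of 3036 bp is the longest of the ring, gave 0.64 in place of 0.60, and Snrpb gave -0.34 in place of -0.30. The short genes moved toward 0: Snrpd1 to 0.33, Snrpg to 0.35, Snrpf to 0.32, Snrpe to 0.25 and Lsm3 to 0.31. Lsm7, Prpf4b, Snrnp200, Snrnp27 and Snrpa1 were no longer called. Lsm6, Prpf18, Prpf39 and Prpf8 were then called higher, and Lsm2 and Sf3b6 lower. The totals were 23 higher and 6 lower. Lsm5 fell in size from 0.33 to 0.18 but was still called.

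**Figure D4:**
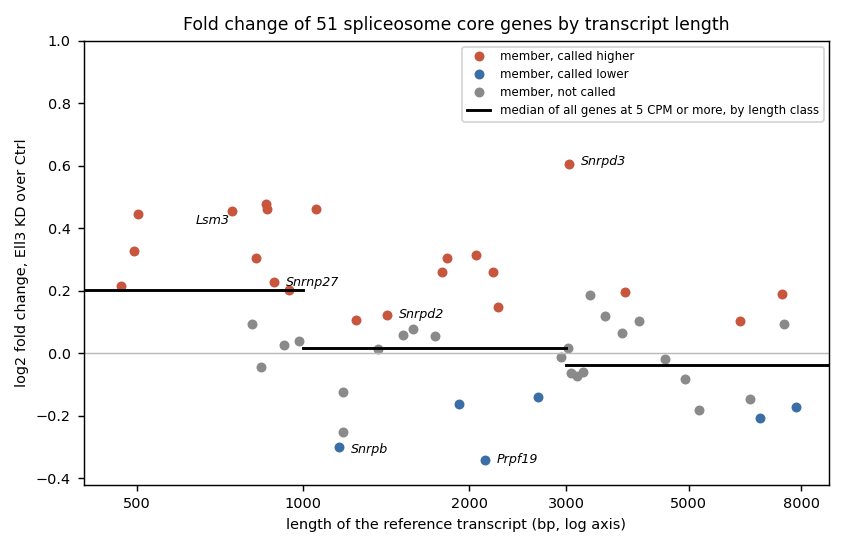
Log2 fold change of the 51 protein-coding genes against the length of the reference transcript (bp, log axis); points are genes, coloured by call, and black lines are medians of all genes of at least 5 CPM in 3 length classes. Of the 13 genes under 1000 bp, 9 are called higher, where the class median is 0.20, while Snrpd3 at 3036 bp stands at 0.60.

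Other genes of the pathway, from 7 lists of 129 tested genes, rose in 41 cases and fell in 27, with a median log2 fold change of 0.05. These shares, 31.8% and 20.9%, lie near the 27.2% and 25.3% of genes of at least 5 CPM, and each list is to be read against those. The proteins that build snRNPs (SMN complex, methylosome and import) showed 6 rises and 5 falls among 22. Smn1, the SMN protein that loads the Sm ring, rose by 0.17 (306.4 and 287.2 CPM to 338.4 and 330.2 CPM, edgeR adjusted p = 2.22e-04), and its partner Gemin6 by 0.22. Strap, another SMN complex protein, fell by 0.24, and Phax, the export adaptor of U snRNAs, fell by 0.21.

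The other U5 and tri-snRNP proteins gave 4 rises and 4 falls among 17. Ppih, the cyclophilin of U4/U6, rose from 31.5 and 32.1 CPM to 45.1 and 43.7 CPM (0.48 ± 0.06, edgeR adjusted p = 1.13e-07), and Snu13, which binds the U4 stem, rose by 0.25. Aar2, which holds Prpf8 during U5 assembly, fell by 0.61 at 4.64 to 8.40 CPM, and Eftud2, the U5 GTPase, fell by 0.16. The other U2 and branch point proteins gave 6 rises and 4 falls among 18. U2surp rose by 0.50 and U2af1l4, a relative of the small U2AF subunit, by 0.26. Rbm5 and Puf60, regulators of 3′ splice site choice, fell by 0.44 and 0.12.

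The Prp19 complex and catalytic step factors gave 10 rises and 6 falls among 35, with Cwc15 (0.36) and the RNA-binding Rbm22 (0.25) higher and the helicase gene Dhx35 (-0.69) lower. Other minor spliceosome proteins rose in 5 and fell in 2 of 11 cases, with Scnm1 (0.36) and Rbm48 (0.29) higher. Armc7, a partner of Rbm48, was lower at 58.9 and 60.1 CPM in Ctrl and 40.3 and 42.6 CPM in Ell3 KD (-0.52 ± 0.05, edgeR adjusted p = 6.82e-09). Zrsr1, a relative of the factor that recognises the 3′ splice site of minor introns, fell by 0.76 from 2.62 and 2.07 CPM to 1.31 and 1.45. The exon junction complex, which marks spliced mRNA, had 6 rises and no fall (0) among 11, with a median of 0.15, its core protein Magoh at 0.35 and the associated Sap18 at 0.23. With 11 genes, 2 of them under 1000 bp and both of these called higher, this count stands beside 27.2% called higher and 25.3% lower over genes of at least 5 CPM.

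The partners of LSm proteins in mRNA decay and histone mRNA processing gave 4 rises and 6 falls among 15, a median of -0.06. Casp8ap2 and Sympk, which act with U7 in histone mRNA processing, rose by 0.26 and 0.31. Zfp473, a zinc finger protein that binds the U7 snRNP, had 55.0 and 51.5 CPM in Ctrl and 29.4 and 29.9 CPM in Ell3 KD (-0.85 ± 0.06, edgeR adjusted p = 4.36e-12). Patl2, an oocyte relative of the Pat1 protein that joins the LSm1 to LSm7 ring, had 216.5 and 215.9 CPM in Ctrl and 158.6 and 161.3 CPM in Ell3 KD (-0.43 ± 0.03, edgeR adjusted p = 2.37e-10). Both genes lay lower in each Ell3 KD library than in each Ctrl library.

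**Figure D5:**
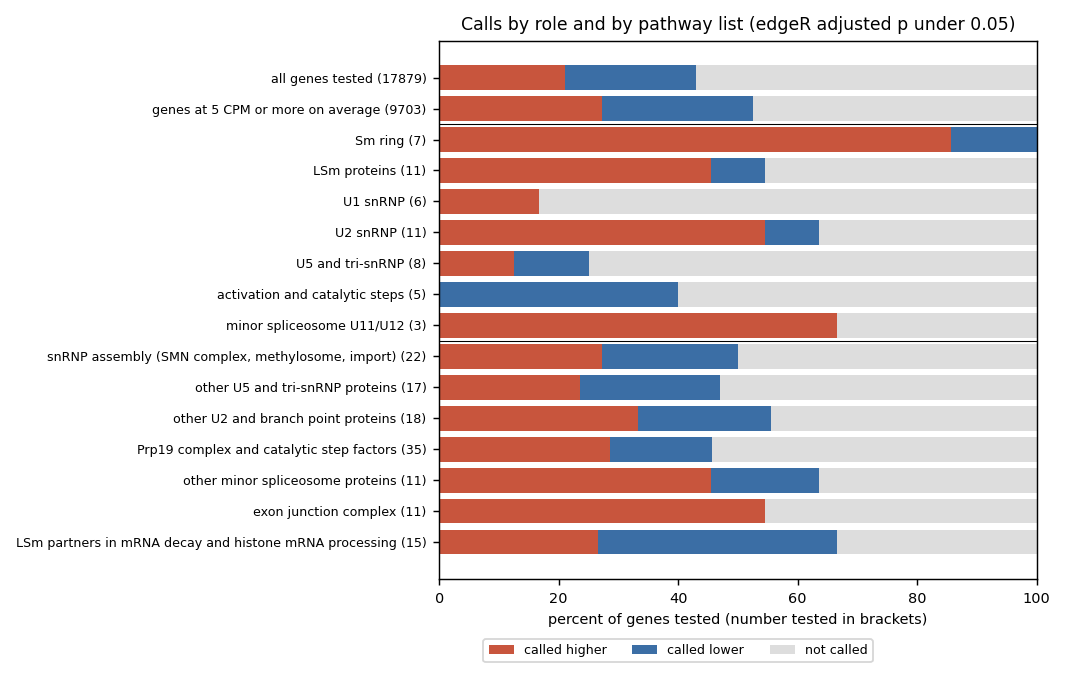
Percent of genes called higher, called lower or not called in Ell3 KD (edgeR adjusted p under 0.05), for all genes, for genes of at least 5 CPM, for the members by role and for the pathway lists; the number tested is in brackets. The share called higher is 21.1% over all genes and 27.2% over genes of at least 5 CPM. It is 6 of 7 in the Sm ring, 6 of 11 in the U2 snRNP, 5 of 11 among LSm genes and 2 of 3 for U11/U12. U5 and the tri-snRNP have 1 of 8, and the factors of activation and catalysis 0 of 5.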

How the data were processed

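Oocyte RNA-seq libraries, 2 Ctrl and 2 Ell3 KD, were grouped by their titles. The deposited values are raw counts for each gene. Build mm10, HISAT2 2.2.1.0, FastQC 0.11.5 and featureCounts are listed in the submitters' processing notes. The strand setting and the treatment of reads with several matches are not given in the sources used here. Both members and gene lists were chosen with earlier results of these data known.

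All 4 libraries were fitted in edgeR 4.0.16 (R 4.3.3) without covariates: filterByExpr, TMM factors (0.984 to 1.015), glmQLFit and the two-sided glmQLFTest. Values of p were Benjamini-Hochberg adjusted over 17879 genes and called under 0.05. CPM are TMM-scaled. The scripts were tested on simulated data. Alternatives were RLE or no scaling, DESeq2 1.42.0, limma-voom (limma 3.58.1), other filters, thinning to the shallowest library, a trend on length and GC, an assumed variation, a replicate block, each library left out and, chosen after seeing the data, counts of copies added.

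Values in every library were given, within each role, for up to 4 called members of smallest p without overlap, for called members against the majority of their role, and for the member highest per kb. From each pathway list up to 2 called genes in each direction were taken. Other members were named after their values were seen. A member and a pathway gene that the rule names are not reported here, but both stay in the counts. Gene positions, lengths and exons came from GENCODE M21 (GRCm38), in which all 52 members matched 1 gene. Copies were found with BLAST 2.17.0 at 95% identity or more over at least 150 bp. Amplified reads carry no molecular identifiers, so the counts are of reads and not of molecules. The 2 libraries of a group differed by more than counting error, with a chi-square per degree of freedom of 4.08 in Ctrl and 4.17 in Ell3 KD.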

Additional observations from a re-analysis of the deposited data

How the results depend on the processing

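Under the 15 alternatives run, the members called higher numbered 16 to 24 and those called lower 4 to 9, except with an assumed coefficient of variation of 0.2. There 0 members were called higher and 0 lower, 1 pathway gene rose and 1 fell, and 861 of all genes were called higher and 1103 lower (edgeR likelihood ratio test). Without scaling beyond the total, the median of all genes moved to -0.04, the members' median to 0.0542 and their calls to 18 higher and 9 lower. DESeq2 called 21 higher and 4 lower, and limma-voom 22 and 6. With each library left out in turn, 16 to 22 members were called higher and 4 to 7 lower, with a median of 0.07 to 0.11. The pathway genes gave 32 to 40 higher and 18 to 27 lower. Snrpa turned to -0.0246 without scaling and to -0.00739 with the length and GC trend removed, and ran from -0.0204 to 0.0541 with a library left out. Prpf38a turned to -0.0215 with the length and GC trend removed. For other reversals or lost calls the cause was not tested. With a replicate block 24 members were called higher and 6 lower, with a median of 0.09, and 22 and 6 of the main calls were kept. Deviations of same-numbered libraries correlated at 0.03 over all genes, so no strong shared deviation was seen. With 2 libraries per group, this cannot tell whether same-numbered libraries were collected or prepared together. No batch was named in the labels, and the greater depth of Ell3 KD goes with the group. Thinned to the shallowest library, the counts gave 21 higher and 5 lower.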
